A study of Homo sapiens with 4 samples.

Results

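Fc receptors bind the constant part of antibodies, and the 9 genes described here are receptors of this kind, adaptors and kinases that act next to them in myeloid cells: the receptors FCGR1A, FCGR2A, FCGR2B and FCGRT, the adaptors FCER1G and TYROBP, and the kinases FGR, LYN and SYK. The members are fixed by gene symbol, with no threshold on a measured value, although the set was chosen with earlier results of these data known, and all 9 were found among the 24940 genes of the table. RNA-seq read counts were available for 4 libraries of MOLM-13, a cell line grown from a human acute myeloid leukaemia with a KMT2A fusion. The study asked how lowering c-Myc and Bcl-2 together compares with lowering either alone. All cells were infected with lentiviruses, selected with puromycin or G418 and treated with doxycycline, which switches the hairpins on. The groups were shControl (labelled negative control), sh-Bcl2 (Bcl-2 knockdown), sh-c-Myc (c-Myc knockdown) and sh-c-Myc_sh-Bcl2 (both knockdowns, called the double knockdown below). Each group held 1 library, so no difference between 2 groups has a replicate check, and no label says whether separate cultures were made.

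Antibody-coated particles cluster the activating Fc gamma receptors at the cell surface. Src-family kinases such as LYN and FGR then phosphorylate the ITAM motifs of the receptor tail (FCGR2A) or of the partner chain FCER1G (for FCGR1A), and SYK docks on these motifs and starts phagocytosis, oxidative burst and cytokine release. FCGR2B carries an inhibitory ITIM motif in its place and recruits phosphatases that dampen the response, while FCGRT, the neonatal Fc receptor, binds IgG inside endosomes and returns it to the surface. TYROBP (DAP12) is an ITAM adaptor like FCER1G, used by TREM, SIRP-beta and other receptors of myeloid and natural killer cells.

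In these libraries the 5 genes FCGRT, TYROBP, FGR, FCGR2A and FCER1G were higher in both libraries with the c-Myc hairpin, by about 1.80- to 3.95-fold in sh-c-Myc over shControl. FCGR1A, LYN and SYK, already abundant in shControl, differed from it by at most 1.34-fold in the other libraries. FCGR2B, the inhibitory receptor, had its lowest level in the double knockdown, 3.03-fold below sh-c-Myc, although each hairpin alone left it above shControl. The Bcl-2 hairpin by itself put none of the 9 genes past 2-fold.

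The promoters of the 5 genes that were higher with the c-Myc hairpin and of FCGR2B are shown, beside that of FCGR1A, whose window shares a stretch with that of FCGR2A. They were searched for GAGGAA, used here as the core of the binding motif of PU.1, the myeloid transcription factor encoded by SPI1. FCGRT and FCER1G lack GAGGAA in these windows, though both hold the shorter GGAA. The windows are RefSeq sequences of GRCh38.p14, 250 bases long, that end just before the annotated first base of the transcript and read 5′ to 3′ on the gene's strand. Capitals mark GAGGAA, which reads TTCCTC where it lies on the other strand. They are TYROBP (chr19:35908296-35908545, minus strand), FGR (chr1:27635186-27635435, minus strand, the upstream of its listed starts), FCGR1A (chr1:149782444-149782693, plus), FCGR2A (chr1:161505207-161505456, plus), FCGR2B (chr1:161662893-161663142, plus, the start nearest to the GENCODE gene start), FCGRT (chr19:49512411-49512660, plus) and FCER1G (chr1:161215045-161215294, plus).
TYROBP: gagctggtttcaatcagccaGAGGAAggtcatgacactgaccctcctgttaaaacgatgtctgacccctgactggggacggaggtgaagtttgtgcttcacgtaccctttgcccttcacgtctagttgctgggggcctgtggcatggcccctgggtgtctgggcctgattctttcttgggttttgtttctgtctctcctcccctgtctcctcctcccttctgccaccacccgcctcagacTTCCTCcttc
FGR: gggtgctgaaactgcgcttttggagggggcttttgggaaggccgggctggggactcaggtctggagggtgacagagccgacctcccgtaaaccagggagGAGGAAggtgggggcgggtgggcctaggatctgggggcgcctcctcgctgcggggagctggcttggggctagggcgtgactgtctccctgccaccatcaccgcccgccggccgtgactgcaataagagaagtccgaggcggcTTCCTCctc
FCGR1A: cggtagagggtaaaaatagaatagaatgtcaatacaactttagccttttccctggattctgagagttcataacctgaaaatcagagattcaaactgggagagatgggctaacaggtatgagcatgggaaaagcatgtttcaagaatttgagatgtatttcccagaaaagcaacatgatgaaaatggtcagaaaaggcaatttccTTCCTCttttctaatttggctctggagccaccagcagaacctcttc
FCGR2A: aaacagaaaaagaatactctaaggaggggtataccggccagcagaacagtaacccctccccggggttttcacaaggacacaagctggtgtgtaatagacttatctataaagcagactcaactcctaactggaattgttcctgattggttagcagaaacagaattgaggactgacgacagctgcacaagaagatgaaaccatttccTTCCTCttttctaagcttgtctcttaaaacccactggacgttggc
FCGR2B: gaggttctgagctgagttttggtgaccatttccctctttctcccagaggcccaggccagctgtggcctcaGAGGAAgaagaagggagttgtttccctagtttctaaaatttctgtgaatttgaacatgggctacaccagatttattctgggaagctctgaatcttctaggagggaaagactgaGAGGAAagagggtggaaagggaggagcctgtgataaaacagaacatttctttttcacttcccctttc
FCGRT: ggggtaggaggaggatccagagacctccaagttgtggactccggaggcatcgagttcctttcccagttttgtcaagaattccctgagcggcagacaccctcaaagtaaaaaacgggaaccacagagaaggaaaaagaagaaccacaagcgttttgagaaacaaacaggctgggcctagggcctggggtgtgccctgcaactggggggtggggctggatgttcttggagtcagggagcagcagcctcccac
FCER1G: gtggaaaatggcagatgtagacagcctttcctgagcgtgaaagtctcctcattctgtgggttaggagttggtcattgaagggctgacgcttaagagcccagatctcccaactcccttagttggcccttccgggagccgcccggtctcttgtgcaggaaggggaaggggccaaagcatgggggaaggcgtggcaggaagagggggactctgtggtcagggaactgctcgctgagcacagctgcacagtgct

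Of the 8 members looked up in the RefSeq table, 8 matched, with 12 windows between them, and 6 (FCGR1A, FCGR2A, FCGR2B, TYROBP, FGR and SYK) held GAGGAA on either strand in at least 1 window. Counted by window, 7 of the 12 held it, and of all 35116 promoter windows of this length 23.6% did. In TYROBP and FGR a copy ended 5 and 4 bases before the start, and in FCGR1A and FCGR2A it began 46 and 45 bases before it. FCGR1A and FCGR2A shared an unbroken stretch of 20 bases around it, atttccTTCCTCttttctaa, which 2 of the 35116 windows held, namely their own. In sh-c-Myc over shControl, FCGR2A stood at 1.93-fold and FCGR1A at 1.23-fold. Any part of the stretch in these levels was not tested. The windows of FCGRT, with the largest ratio of the 9 in sh-c-Myc over shControl, and of FCER1G held no match. The E-box CACGTG, bound by MYC and MAX and present on either strand in 6.34% of all windows, had 0 matches in the windows of the 8 members. TTCNNNGAA, the STAT-binding GAS element (6.57% of all windows), matched in FCGR1A, from 93 to 85 bases before the start, and in the FCGR2B window shown. A match describes letters in this window and says nothing about binding.

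SPI1, which encodes PU.1, stood at 173 CPM with the control hairpin, 139 with the Bcl-2 hairpin, 252 with the c-Myc hairpin and 197 with both. CPM means counts per 1000000 of a library total scaled by TMM factors, which correct for composition. It was thus lowest with the Bcl-2 hairpin alone and highest with the c-Myc hairpin alone, and its change with the c-Myc hairpin over both backgrounds was 0.52 ± 0.15 (log2 ± SE, adjusted p = 0.0290, edgeR quasi-likelihood test described below). SPI1 was named outside the rule for gene names given under processing, because of the motif search.

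Total counts were 14825763 with the control hairpin, 15691129 with the Bcl-2 hairpin, 14421558 with the c-Myc hairpin and 15494138 with both. Targeted transcripts were checked first. MYC stood at 434, 364, 278 and 302 CPM in that order, lowest in the 2 libraries with its hairpin, at 1.56-fold below shControl in sh-c-Myc, and BCL2 stood at 119.7, 38.7, 111.5 and 44.5 CPM, at 3.09-fold below shControl in sh-Bcl2. In what follows, bracketed 95% intervals cover counting error only. The word called is used of a gene that differed by 2-fold or more with an interval that leaves out 1, among the 13726 genes that reached 1 CPM in some library.

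To place the 9 genes against each other, the authors' FPKM (fragments per kilobase of exon, scaled to library size) were used, since only values per length compare between genes. In shControl the kinases led, with SYK at 45.0 FPKM and LYN at 33.7. FCGR1A at 29.3 and TYROBP at 29.2 followed and did not differ beyond counting error (ratio 1.00 [0.896–1.13]). Then came FCER1G at 18.5, FCGRT at 12.01, FCGR2A at 6.96, FGR at 2.19 and FCGR2B at 0.821, each below the one before by more than its counting error. FCGR1A, the high-affinity IgG receptor, thus stood above FCGR2A and FCGR2B, and the inhibitory receptor was the scarcest of the 9.

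In sh-c-Myc the order changed at the top. TYROBP led with 106 FPKM, 1.84-fold [1.73–1.95] above SYK (57.7), and FCGRT followed with 53.9, ahead of LYN (44.9), FCGR1A (41.0) and FCER1G (37.9). FCGR1A and FCER1G, receptor and partner chain, did not differ beyond counting error there (1.08-fold [0.981–1.20]), whereas FCGR1A exceeded FCER1G 1.58-fold [1.38–1.81] in shControl and 1.935-fold [1.70–2.21] in sh-Bcl2. In the double knockdown TYROBP again led with 84.4 FPKM, and LYN (43.6), SYK (42.8), FCGR1A (41.5) and FCGRT (40.0) followed, each neighbour pair within counting error. FCGR2B was last in all 4 libraries, at 1.15 FPKM with the Bcl-2 hairpin, 1.40 with the c-Myc hairpin and 0.427 with both.

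**Figure D1:**
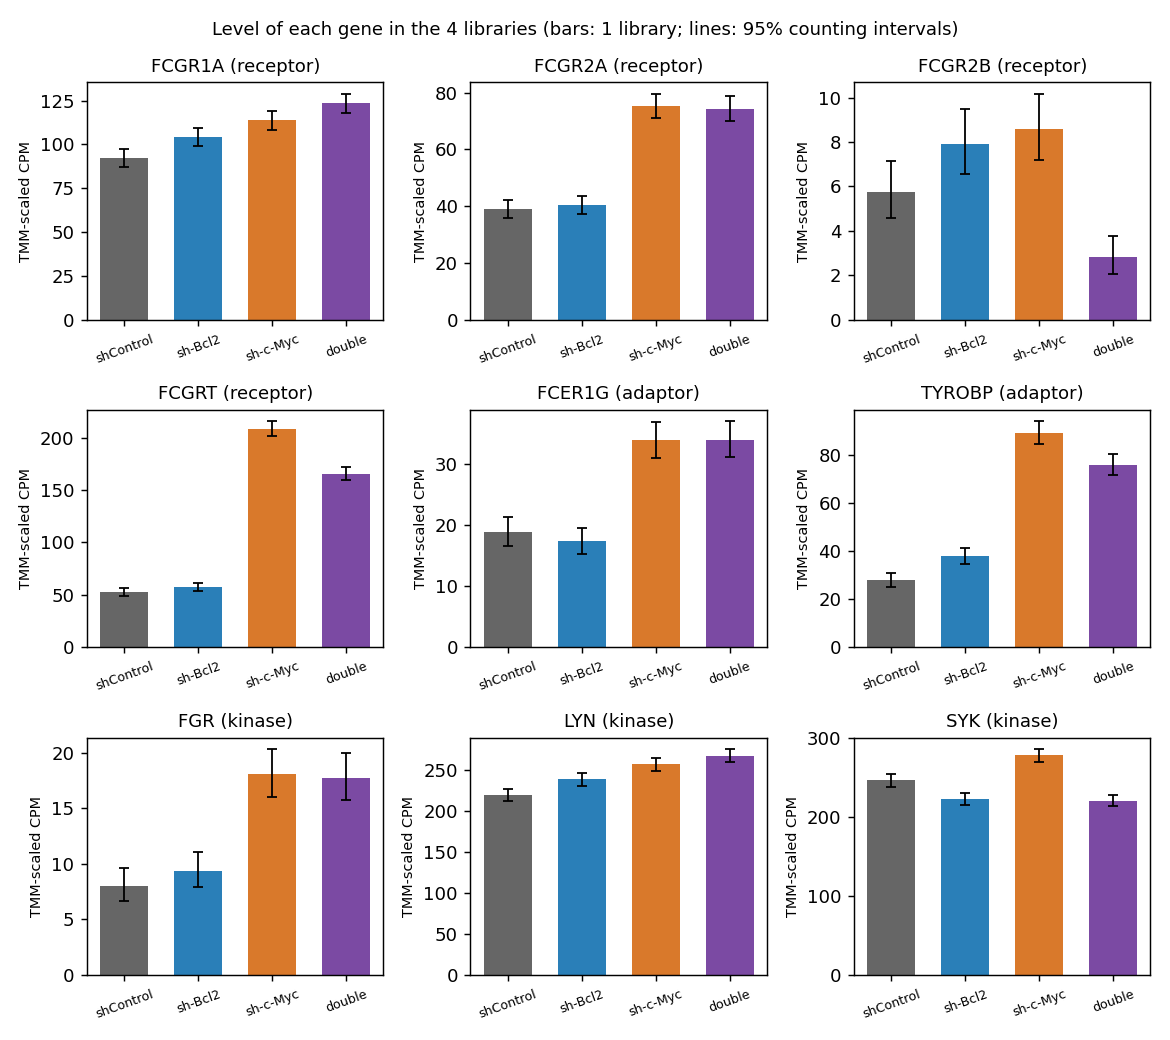
Level of each of the 9 genes as TMM-scaled CPM (linear axis from 0) in the 4 libraries, where double means the double knockdown. Each bar is 1 library and each line a 95% Poisson interval of its count. FCGRT, TYROBP, FGR, FCGR2A and FCER1G are high in both libraries with the c-Myc hairpin, and FCGR2B is lowest in the double knockdown at 2.81 CPM.

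FCGRT, the receptor that recycles IgG, showed the largest ratio of the set in sh-c-Myc over shControl. It stood at 52.7 CPM with the control hairpin, 57.3 with the Bcl-2 hairpin, 208 with the c-Myc hairpin and 166 with both. Both libraries with the c-Myc hairpin were high and both without it low, with no overlap of their counting intervals. The ratio to shControl was 3.95-fold [3.64–4.28] with the c-Myc hairpin alone and 3.14-fold [2.89–3.41] with both hairpins, against 1.09-fold [0.985–1.20] in sh-Bcl2. FCGRT was 1.26-fold [1.19–1.32] lower in the double knockdown than in sh-c-Myc. Its exons share no stretch of 50 bases with another GENCODE 29 gene.

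FCGR2A, the activating low-affinity IgG receptor with its own ITAM, stood at 38.9 CPM with the control hairpin, 40.4 with the Bcl-2 hairpin, 75.2 with the c-Myc hairpin and 74.3 with both. Both libraries with the c-Myc hairpin were high and lay within 1.01-fold [0.933–1.10] of each other, and both without it were low. At 1.93-fold [1.75–2.15] in sh-c-Myc over shControl it lay just under the 2-fold rule. It passed that rule when libraries were scaled by total counts (log2 1.14 in place of 0.95).

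FCGR1A stood at 92.3 CPM with the control hairpin, 104 with the Bcl-2 hairpin, 114 with the c-Myc hairpin and 123 with both, lowest in shControl and highest with both hairpins. The ratios to shControl were 1.13-fold [1.05–1.22], 1.23-fold [1.15–1.33] and 1.34-fold [1.25–1.43], so the counting intervals exclude 1 but the differences are small. Counts of this gene are uncertain, because 73.6% of its 50-base stretches also occur in FCGR1B, FCGR1CP or antisense genes. FCGR1A took 87.3%, 84.8%, 82.5% and 82.7% of the summed counts of FCGR1A, FCGR1B and FCGR1CP in the 4 libraries. The summed counts of the family gave a log2 ratio to shControl of 0.38 [0.29, 0.48] with the c-Myc hairpin alone and 0.50 [0.40, 0.59] with both hairpins, close to those of FCGR1A alone (0.30 and 0.42). FCGR1A holds most of the summed counts, so this closeness does not show how reads were split within the family.

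FCGR2B, the inhibitory receptor, was counted 81 times with the control hairpin, 120 times with the Bcl-2 hairpin, 134 times with the c-Myc hairpin and 44 times with both, or 5.75, 7.93, 8.59 and 2.81 CPM. Each hairpin alone left it above shControl, by 1.38-fold [1.03–1.85] with the Bcl-2 hairpin and 1.49-fold [1.13–1.99] with the c-Myc hairpin, and the double knockdown alone lay below. There it was 2.03-fold [1.40–3.02] lower than in shControl, 2.80-fold [1.98–4.08] lower than in sh-Bcl2 and 3.03-fold [2.16–4.40] lower than in sh-c-Myc. The call against shControl was lost with scaling by total counts (log2 -0.94) and by upper quartile factors (-0.93). The departure from additivity, which subtracts both single-knockdown log2 ratios from that of the double knockdown, was -2.06 [-2.70, -1.42], and no other gene of the 9 was called for it. Of all 13726 genes, 5.81% were called lower and 3.02% higher for this departure (8.84% in either direction).

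The balance between the activating and the inhibitory low-affinity receptor shifted accordingly. In FPKM, FCGR2A exceeded FCGR2B 8.47-fold [6.70–10.8] with the control hairpin, 6.38-fold [5.24–7.83] with the Bcl-2 hairpin, 10.96-fold [9.16–13.2] with the c-Myc hairpin and 33.0-fold [24.4–45.7] with both. The interval of the double knockdown overlaps none of the others. FCGR2B made up 10.8% [8.68–13.3], 13.4% [11.2–15.8], 8.48% [7.15–9.97] and 3.30% [2.41–4.41] (Clopper-Pearson) of the summed counts of FCGR2A, FCGR2B and FCGR2C in these libraries.

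FCGR2B lies on chromosome 1 (161663147 to 161678654, plus strand, GENCODE 29 on GRCh38) downstream of FCGR2A (161505430 to 161524013), with FCGR2C, a polymorphic pseudogene made from parts like those of both neighbours, between them. FCGR2C was counted 120, 164, 273 and 128 times in the order above. It was 2.05-fold [1.65–2.57] higher in sh-c-Myc than in shControl and 2.13-fold [1.73–2.66] lower in the double knockdown than in sh-c-Myc. HSPA7, a heat-shock pseudogene next to FCGR2C, was counted 72, 53, 132 and 47 times, and its log2 ratio of the double knockdown to sh-c-Myc was -1.48. The ratio of FCGR2A, at the other end of this stretch, was -0.02. HSPA7 was added after its values were seen. HSPA6, a heat-shock gene in the same stretch, went the other way, at 13, 17, 8 and 21 counts and a log2 ratio of 1.335. AL590385.2, also in this stretch, went that way too, at 2, 5, 1 and 7 counts. Both were likewise named after their values were seen. FCGR3A, the low-affinity receptor of natural killer cells and some monocytes, lies in the same stretch and was counted 0, 1, 5 and 15 times.

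Reads of FCGR2B and FCGR2C are partly interchangeable, since 16.2% of the 50-base stretches of FCGR2B and 44.9% of those of FCGR2C occur in another gene, mainly of this family. The sources used here do not give how reads that map to several places were treated. With FCGR2A, FCGR2B and FCGR2C summed, the log2 ratio of the double knockdown to shControl was 0.68 [0.55, 0.81], a sum in which FCGR2A holds most counts.

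**Figure D2:**
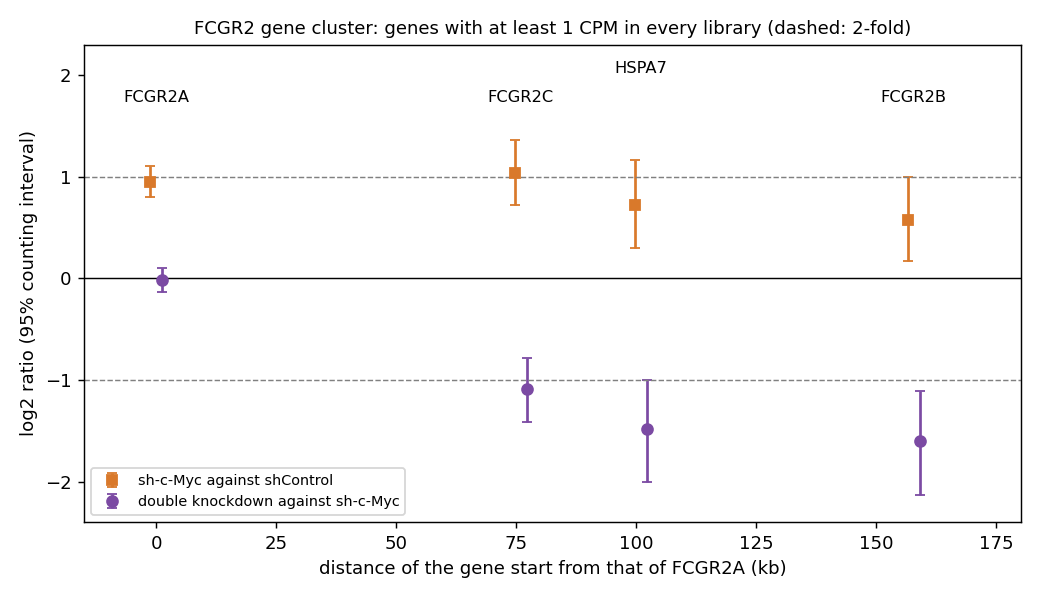
Genes of the FCGR2 cluster that reached 1 CPM in all 4 libraries, placed by the distance of their start from that of FCGR2A (kb). Squares are log2 ratios of sh-c-Myc to shControl and circles those of the double knockdown to sh-c-Myc, offset slightly for legibility, with 95% counting intervals; dashed lines mark 2-fold. Of the circles, FCGR2A sits at -0.02, while FCGR2C, HSPA7 and FCGR2B lie below the lower dashed line. HSPA6, at 1.335 for the double knockdown against sh-c-Myc, did not reach 1 CPM in every library and is not drawn.

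TYROBP, the ITAM adaptor, stood at 27.8 CPM with the control hairpin, 37.9 with the Bcl-2 hairpin, 89.1 with the c-Myc hairpin and 75.9 with both. Both libraries with the c-Myc hairpin were high, and sh-Bcl2 lay above shControl by 1.36-fold [1.19–1.55]. The ratio to shControl was 3.20-fold [2.86–3.59] with the c-Myc hairpin alone and 2.72-fold [2.43–3.06] with both hairpins. With the c-Myc hairpin present, adding the Bcl-2 hairpin went with a level 1.17-fold [1.09–1.27] lower. The departure from additivity was -0.68 [-0.89, -0.46], under the 2-fold rule.

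FCER1G, the partner chain of FCGR1A and of the IgE receptor, stood at 18.8 CPM with the control hairpin, 17.3 with the Bcl-2 hairpin, 33.8 with the c-Myc hairpin and 33.9 with both. The 2 libraries with the c-Myc hairpin were level with each other (1.00-fold [0.888–1.13]) and lay 1.80-fold [1.55–2.09] and 1.80-fold [1.55–2.10] above shControl. Like FCGR2A it fell just short of 2-fold and passed with scaling by total counts in sh-c-Myc (log2 1.03). TYROBP exceeded FCER1G in FPKM in every library, by 1.57-fold [1.34–1.84] in shControl and 2.80-fold [2.53–3.10] in sh-c-Myc.

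Among the kinases, FGR, a Src-family kinase of mature myeloid cells, stood at 8.02 CPM with the control hairpin, 9.38 with the Bcl-2 hairpin, 18.1 with the c-Myc hairpin and 17.7 with both. Both libraries with the c-Myc hairpin were high, at 2.25-fold [1.81–2.83] and 2.20-fold [1.77–2.77] over shControl. LYN, the Src-family kinase that phosphorylates both ITAM and ITIM motifs, stood at 219.5, 239, 257 and 267.5 CPM, at most 1.22-fold [1.16–1.28] above shControl. SYK stood at 247, 223, 278 and 221 CPM, with both libraries that carry the Bcl-2 hairpin lower than their counterparts without it. That difference was 1.11-fold [1.06–1.16] against shControl and 1.26-fold [1.20–1.32] against sh-c-Myc. LYN exceeded FGR in FPKM 15.4-fold [12.7–18.7] in shControl and 7.98-fold [7.07–9.04] in sh-c-Myc, and remained the more abundant of both.

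The counts of calls summarise these ratios. In sh-Bcl2 against shControl 0 of the 9 genes were called, where 2.46% of all genes were called higher and 2.16% lower (4.61% in either direction). Against the same control, sh-c-Myc had 3 called higher (FCGRT, TYROBP and FGR) and 0 lower, where 12.7% of all genes were called higher and 9.8% lower (22.5% in either direction). The median log2 ratio of the 9 was 0.84 there, beside -0.02 over all genes, and all 9 ratios were above 0. In the double knockdown against shControl the same 3 were called higher and FCGR2B lower, where 7.11% of all genes were called higher and 5.95% lower (13.1% in either direction), with medians of 0.85 and -0.01. On log2(FPKM + 1), which shrinks ratios of low genes, FGR and FCGR2B were not called there. These 3 comparisons share the shControl library.

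Between the knockdowns, FCGR2B was the only member called when both hairpins were set against the c-Myc hairpin alone, as lower, where 4.85% of all genes were called lower and 1.65% higher (6.51% in either direction). Against sh-Bcl2, the double knockdown had FCGRT (2.89-fold [2.67–3.12]) and TYROBP (2.003-fold [1.81–2.22]) called higher and FCGR2B lower, where 5.19% and 3.61% of all genes were (8.8% in either direction). TYROBP lies at the edge of the rule there and was not called with a GC and length trend removed (log2 0.95). FCGR2A, FCER1G and FGR followed at 1.84-, 1.96- and 1.89-fold, just outside it. Scaling by total counts in place of TMM moved the median of all 10739 genes with at least 50 counts on average by 0.19 (log2) in sh-c-Myc against shControl, and the differences above stand relative to the TMM scale.

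**Figure D3:**
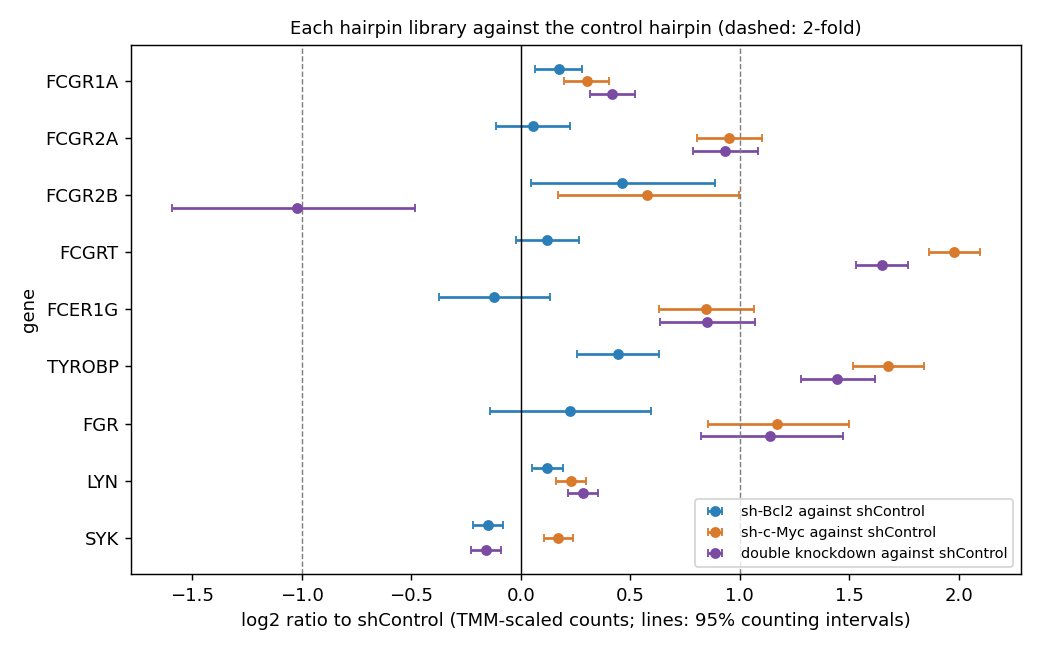
Log2 ratio of each knockdown library to shControl for the 9 genes, with 95% counting intervals; dashed lines mark 2-fold. FCGRT reaches 1.98 with the c-Myc hairpin alone and 1.65 with both hairpins, and FCGR2B is the gene whose double-knockdown value (-1.02) lies opposite to both single-knockdown values (0.46 and 0.58).

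The layout of 2 hairpins, each present or absent, allowed 1 test across libraries: edgeR's quasi-likelihood test with a term per hairpin and Benjamini-Hochberg adjustment over 12885 genes. It compares the 2 libraries that carry a hairpin with the 2 that do not and has 1 residual degree of freedom, which holds any non-additive effect and the spread between libraries together. For the c-Myc hairpin 5 of the 9 genes passed at an adjusted p of 0.05, all of them higher, where 9.2% of all genes were higher and 14.2% lower (23.4% in either direction). FCGRT rose by 1.755 ± 0.170 (log2 ± SE, adjusted p = 0.000232) and TYROBP by 1.34 ± 0.19 (adjusted p = 0.000993). FGR rose by 1.04 ± 0.24 (adjusted p = 0.00877), FCGR2A by 0.91 ± 0.16 (adjusted p = 0.00266) and FCER1G by 0.91 ± 0.19 (adjusted p = 0.00616). All 5 also passed under each of the 7 other settings or tools tried. FCGR1A (0.27 ± 0.15), LYN (0.20 ± 0.16) and SYK (0.08 ± 0.16) did not pass, nor did FCGR2B (-0.41 ± 0.44), whose large departure from additivity enters its error here.

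For the Bcl-2 hairpin 0 of the 9 passed edgeR's test, 0 had an unadjusted p under 0.05, and DESeq2 and limma-voom called 0 as well, where 0.0155% of all genes passed as higher and 0.0233% as lower (0.0388% in either direction). The estimates ran from -0.53 ± 0.44 for FCGR2B and -0.24 ± 0.16 for SYK to 0.145 ± 0.153 for FCGR1A. A p that misses the threshold does not show that the Bcl-2 hairpin left these genes the same.

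**Figure D4:**
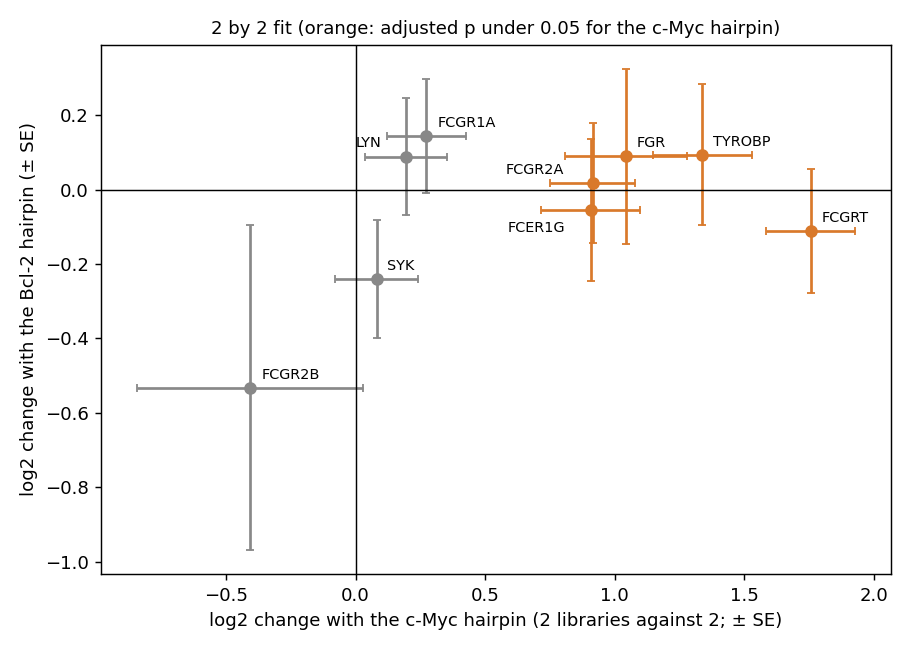
Change with the c-Myc hairpin (horizontal) against change with the Bcl-2 hairpin (vertical) for the 9 genes, both log2 ± SE from the fit over 4 libraries. Orange genes passed the test for the c-Myc hairpin; FCGRT lies farthest right at 1.755 and no gene passed the test for the Bcl-2 hairpin.

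Other genes of the same pathways were taken from 7 lists. Over all genes tested for the c-Myc hairpin, 9.2% rose and 14.2% fell (23.4% in either direction). Of 21 other Fc receptor genes, 15 were in the table and 9 reached 1 CPM, and for the c-Myc hairpin 2 of these 9 rose and 1 fell. FCER2, the low-affinity IgE receptor CD23, stood at 11.6, 30.1, 90.8 and 88.3 CPM and rose by 2.225 ± 0.273 (edgeR adjusted p = 0.000527). In sh-Bcl2 it was already 2.58-fold [2.16–3.11] above shControl and called. TRIM21, the cytosolic antibody receptor, rose by 0.57 ± 0.16 (adjusted p = 0.0247), named after its value was seen, and FCRLA fell by 1.67 ± 0.47 (adjusted p = 0.0242). FCGR1B did not pass (0.76 ± 0.26, adjusted p = 0.0536), and in the double knockdown it was 2.61-fold above shControl. MS4A2, the beta chain of the IgE receptor, had 23, 17, 55 and 47 counts, FCAR 3, 10, 13 and 9, and FCER1A, the chain that binds IgE, at most 2.

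Of 16 other Src-family and SYK-family kinases and regulators, 12 were tested and 4 rose with the c-Myc hairpin, with 0 lower. Over all genes, 9.2% rose and 14.2% fell. PTPRC (CD45), which removes the inhibitory phosphate of Src-family kinases, rose by 0.84 ± 0.19 (edgeR adjusted p = 0.00822) and CBLB, a ubiquitin ligase that restrains ITAM signalling, by 0.92 ± 0.21 (adjusted p = 0.00843). PTPRJ, a phosphatase with a role like that of CD45, rose by 0.76 ± 0.16 (adjusted p = 0.00565) and was named after its value was seen. SYK's relative ZAP70 had 2, 6, 17 and 11 counts. SRC had 17, 23, 53 and 43 counts and did not pass (adjusted p = 0.0867).

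Of the genes that signal downstream of SYK, 2 of 30 tested rose and 1 fell with the c-Myc hairpin. Over all genes, 9.2% rose and 14.2% fell, so these counts do not set the list apart. The median log2 change was 0.17, beside -0.02 over all genes. FYB1 (ADAP), an adaptor of integrin activation, rose by 0.74 ± 0.18 (edgeR adjusted p = 0.0133) and GAB2, a docking protein for PI3-kinase, by 0.84 ± 0.16 (adjusted p = 0.00329). BTK fell by 0.61 ± 0.16 (adjusted p = 0.0156). GAB2 and BTK were named after their values were seen. Of the inhibitory phosphatases and docking proteins that act behind FCGR2B, 0 of 8 passed edgeR's test, with a median of -0.02. Over all genes, 23.4% passed in either direction. Of 29 tested genes of actin remodelling in phagocytosis, 3 rose and 2 fell, which does not set this list apart from all genes either. The largest change was that of MARCKSL1, which fell by 2.06 ± 0.23 (edgeR adjusted p = 0.000336). It went from 78.4 and 71.8 CPM in the libraries without that hairpin to 13.02 CPM with it alone and 24.2 with both.

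Receptors that pair with FCER1G or TYROBP, or are linked to them less directly, formed the next list. CSF1R and the integrin chains ITGAM and ITGB2 are of the less direct kind, and HCST is itself an adaptor. Of 32 listed, 26 were in the table, 15 were tested, and 6 rose with the c-Myc hairpin with 0 lower (median 0.92). Over all genes, 9.2% rose and 14.2% fell. CSF1R, the receptor of macrophage colony-stimulating factor, stood at 18.95, 35.7, 179 and 152 CPM and rose by 2.65 ± 0.24 (edgeR adjusted p = 0.000181). ITGAM (CD11b) rose by 1.310 ± 0.175 (adjusted p = 0.000746) and SIGLEC14 by 1.91 ± 0.39 (adjusted p = 0.00508). TREM1, a receptor that uses TYROBP, had 10, 55, 83 and 60 counts and did not pass (adjusted p = 0.128). LILRA4 had 1, 3, 25 and 3 counts. HCST (DAP10), the gene next to TYROBP on chromosome 19 and an adaptor of the same kind of receptors, had 5, 4, 11 and 8 counts. Those counts are uncertain, because 50.1% of its exonic bases overlap the antisense gene AD000864.1.

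Inhibitory receptors, most of them with ITIM tails like FCGR2B, rose in 8 of 12 tested genes with 0 lower (median 0.60). Over all genes, 9.2% rose and 14.2% fell. The list is broader than the ITIM class, since VSIR stands in it without an ITIM. PECAM1 rose by 1.49 ± 0.18 (edgeR adjusted p = 0.000514), CLEC12A by 1.439 ± 0.285 (adjusted p = 0.00450), VSIR by 1.19 ± 0.17 (adjusted p = 0.000979) and PILRA by 1.34 ± 0.39 (adjusted p = 0.0259). Between the double knockdown and sh-c-Myc, 0 of the 14 listed receptors at 1 CPM were called, against 6.51% of all genes in either direction, a share that allows no contrast with FCGR2B. LILRB3 had 2, 3, 17 and 9 counts.

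**Figure D5:**
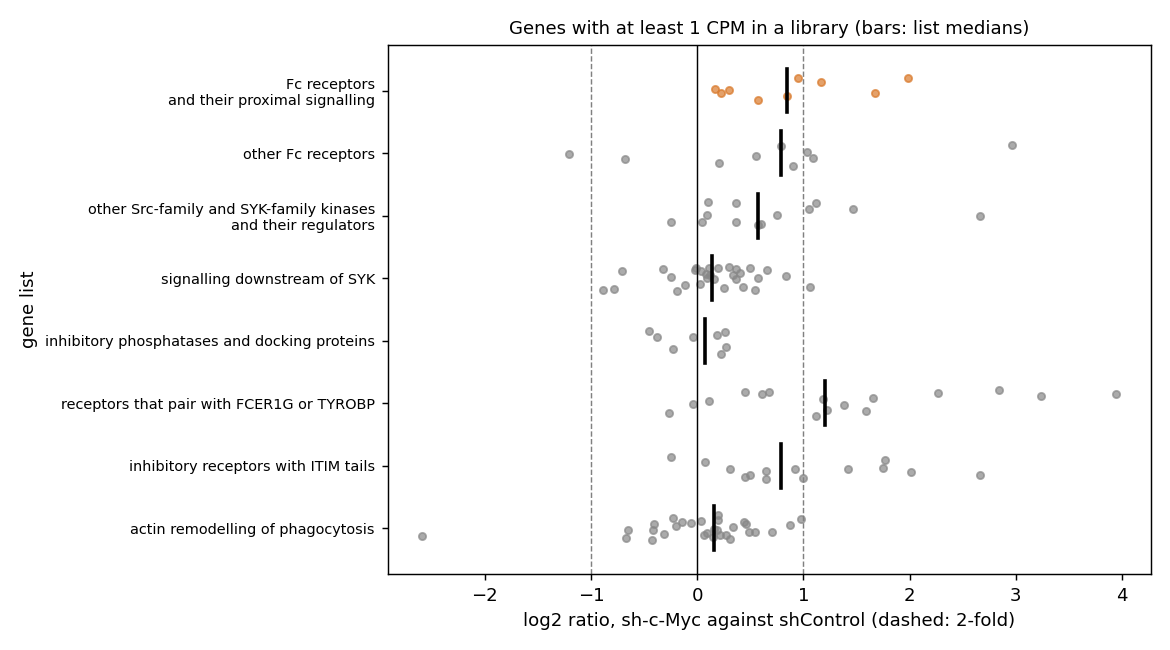
Log2 ratio of sh-c-Myc to shControl for the 9 genes (orange) and the 7 lists (grey) that reached 1 CPM in some library; each point is a gene, spread vertically for legibility, each bar a list median, and dashed lines mark 2-fold. The median of the 9 genes is 0.84, and that of the phosphatases and docking proteins 0.07. That of the list of receptors paired with or linked to FCER1G or TYROBP is 1.20.

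Markers of cell types that use these receptors were read beside the results. Of 18 monocyte and macrophage markers, 17 were in the table, and their summed level was 508 CPM with the control hairpin, 668 with the Bcl-2 hairpin, 1259 with the c-Myc hairpin and 1375 with both, higher in the libraries where FCGRT, TYROBP, FGR, FCGR2A and FCER1G were. Of 12 granulocyte markers, 10 were in the table and summed to 2564, 1807, 5112 and 5010.5 CPM. AZU1 alone gave 1387 CPM of this sum in shControl and 2523 in sh-c-Myc. Of the 8 that reached 1 CPM, 5 were called higher in sh-c-Myc over shControl, against 12.7% of all genes. CTSG went the other way (344 and 272 CPM), and CAMP had at most 7 counts and MMP8 at most 1. The members' link with these markers was not tested, and CSF1R and ITGAM stand in the monocyte list too. The Bcl-2 hairpin alone also went with higher monocyte markers: 5 of the 13 that reached 1 CPM were called higher over shControl, against 2.46% of all genes, and 9 of 13 with the c-Myc hairpin alone, against 12.7%. LYZ stood at 36.1 CPM with the control hairpin, 91.8 with the Bcl-2 hairpin, 239.6 with the c-Myc hairpin and 346.5 with both, while CD14 stayed at 0.781 to 1.22 CPM, CD68 at 0 to 2 counts and MRC1 at 0 to 1 count. In bulk samples, more cells of a type and more RNA per cell cannot be told apart. B cell markers summed to 2.775 to 5.259 CPM, with CD79B at 0 counts in 3 libraries. Mast cell and basophil markers summed to 7.81, 5.68, 16.2 and 13.8 CPM in the order above, higher in both libraries with the c-Myc hairpin. Of the 4 that reached 1 CPM, KIT (25, 32, 148 and 101 counts) and MS4A2 (23, 17, 55 and 47 counts) were called higher in sh-c-Myc over shControl. TPSB2 (2.06 and 1.73 CPM) and GATA2 (2.27 and 1.41 CPM) went the other way from shControl to sh-c-Myc. KIT alone gave 1.77 CPM of the sum in shControl and 9.49 CPM in sh-c-Myc, so the sum does not speak for the list. TPSAB1 and HDC had 0 counts in 3 libraries. The part of these mast cell and basophil markers in the members' differences was not tested. FCGR2B was lowest in the double knockdown, where the monocyte sum was highest. That higher sum was not shared by the list: against sh-c-Myc, 6 of the 13 measured monocyte markers were above 0, with a median log2 ratio of -0.03. Of the 10 genes listed for the identity of MOLM-13, 10 were in the table and summed to 1277 to 1924 CPM, although CD34 had only 0 to 8 counts. T and NK cell markers summed to 54.2 to 69.8 CPM, megakaryocyte markers to 6.14 to 10.97 CPM and erythroid markers to 23.1 to 25.5 CPM. The T and NK sum is almost all NKG7 (67.8 CPM in shControl), with CD247, GNLY and KLRD1 at 0 counts there and CD3D and CD3E not listed. The erythroid sum is almost all EPOR (23.6 CPM in shControl), with HBB and KLF1 at 0 counts there.

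Genes whose 3 log2 ratios to shControl lay nearest to those of a member were found by Euclidean distance over the 9535 genes that reached 10 CPM in some library. For FCGRT they were SEMA6A (distance 0.05), AL033527.5 (0.17) and LRRC25 (0.19), for TYROBP ERV3-1 (0.08), CST3 (0.12) and CYP4V2 (0.14), and for FGR SDC2 (0.03), CSF2RA (0.08) and PRKAR2B (0.10). SEMA6A, for example, had ratios of 0.10, 2.001 and 1.60 where FCGRT had 0.12, 1.98 and 1.65. FCGR2B had no near neighbour, as the closest, ALOX5AP, lay at 0.65, followed by CD226 (0.66) and LPXN (0.67). ALOX5AP stood at 0.11, 0.17 and -0.655 where FCGR2B stood at 0.46, 0.58 and -1.02.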

How the data were processed

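Counts per gene and FPKM were taken from the table the authors deposited, which holds both for 4 libraries. Per the submitters' processing notes, GRCh38, HISAT2 (version not stated) and HTSeq 0.13.5 were used. The sources used here do not give the annotation release, strand setting or treatment of multi-mapping reads, so genes that overlap or share sequence are uncertain. The deposited FPKM values imply gene lengths equal to the GENCODE 29 exon unions for 9 of 9 members.

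From the counts, log2 ratios of TMM-scaled counts (edgeR 4.0.16, prior 0.5) were computed with exact conditional binomial 95% intervals, which do not cover the spread between cultures. Ratios were called at 2-fold over the 13726 genes that reached 1 CPM in some library. Departures from additivity have delta-method intervals. The 2 by 2 layout was fitted with edgeR's quasi-likelihood test on the 12885 genes that reached 1 CPM in 2 or more libraries (common dispersion 0.0221, coefficient of variation 0.149, 11.1 prior degrees of freedom). DESeq2 1.42.0 and limma-voom (limma 3.58.1) were alternatives. With 1 library per group, p-values measure only the spread between these libraries, which may be technical. The methods were tested on simulated data. For the 2 by 2 fit these held additive changes at the common dispersion only, so they do not cover departures from additivity.

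The members and gene lists were chosen with earlier results of these data known. Named genes were MYC, BCL2, the 9 members, up to 5 called genes per list with the largest conservative fold over shControl, close relatives such as FCGR1B and FCGR2C, defining markers and the 3 nearest patterns per called member. Names outside this rule are marked in the text, and 1 gene under it is not reported here. Promoters are RefSeq, GRCh38.p14; that of LYN was not analysed here.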

Additional observations from a re-analysis of the deposited data

Results flagged for a closer look

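FCGR2B moved in opposite directions with the same hairpin in the 2 backgrounds. The log2 ratio for the Bcl-2 hairpin was 0.46 when it was compared with shControl and -1.60 when it was added to the c-Myc hairpin. For the c-Myc hairpin it was 0.58 alone and -1.48 when added to the Bcl-2 hairpin. TYROBP did so for the Bcl-2 hairpin, with 0.44 alone and -0.23 when added to the c-Myc hairpin. With 1 library per group these differences were not tested. Counting intervals on opposite sides of 0 were found for 10.5% of all 13726 genes with the Bcl-2 hairpin and for 2.74% with the c-Myc hairpin.

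The ratios of TYROBP for the Bcl-2 hairpin changed when a trend with base composition was removed. Across 10739 genes the log2 ratio of sh-Bcl2 to shControl went with the GC content (Spearman rho = -0.345, across genes, which are not replicates), and the trend at TYROBP was -0.21. With a GC and length trend removed, TYROBP stood at 0.65 alone and -0.05 when added, and FCGR2B at 0.50 and -1.54.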

How the results depend on the processing

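No paired analysis was possible because each group held 1 library, all numbered 1, and no library can be left out. In sh-c-Myc against shControl the members called went from 3 to 5 with total counts, with upper quartile factors and at 1.5-fold, FCGR2A and FCER1G being added. In the double knockdown they went from 4 to 2 on log2(FPKM + 1). Against sh-c-Myc the 1 call became 0 on that scale and with paralogs summed, and against sh-Bcl2 3 became 6 at 1.5-fold. For departure from additivity 1 became 2 at 1.5-fold and 0 on log2(FPKM + 1) and with paralogs summed. The FPKM pseudocount of 1 exceeds the FPKM of FCGR2B in shControl. With paralogs summed, the sum of FCGR2A, FCGR2B and FCGR2C stands in for FCGR2B. It gave 0.68 in place of -1.02 (double knockdown against shControl) and 0.53 in place of -1.48 (against sh-Bcl2). FCGR2B made up 3.30% of this sum in the double knockdown and 13.4% in sh-Bcl2, so the sum does not measure FCGR2B itself. FCGR2B was called lower against shControl under 6 of 10 alternatives, with this sum counted among the alternatives. The Bcl-2 hairpin estimate of FCGR2A turned from 0.02 to -0.004 with upper quartile factors and -0.02 (-0.023) with total counts; the cause was not tested. FCGR1A passed the test for the c-Myc hairpin with total counts (0.40, edgeR adjusted p = 0.0433) and not under the other 6 alternatives, whose adjusted p reached 0.438.

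Over all genes, counts of calls moved by more than 1.5 times as follows, in the order Bcl-2 hairpin, c-Myc hairpin and both against control, both against c-Myc alone, both against Bcl-2 alone, and departure. From 633, 3089, 1793, 893, 1208 and 1213 they became 163, 1872, 996, 213, 561 and 505 for genes averaging 50 counts or more, 1393, 5539, 3863, 2075, 2903 and 2636 at 1.5-fold, and 100, 1342, 593, 157, 298 and 375 on log2(FPKM + 1). The Bcl-2 hairpin's count in the fit was 5, and 3 with DESeq2 size factors, 111 with upper quartile factors, 123 with total counts, 58 with no filter, 13 with DESeq2 and 3 with limma-voom. Scaling by total counts moved the share of calls that were higher from 56.5% to 71.0% in sh-c-Myc against shControl and from 34.2% to 22.2% for the departure, and by upper quartile factors to 70.7% and 20.9%; for the double knockdown against shControl upper quartile factors moved it from 54.4% to 64.4%. Of 74 values of member counts under alternatives, 64 stayed within 1.5 times. Depth limits FCGR2B most, with 44 to 134 counts.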
